A study of Mus musculus with 9 samples.

Results

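The genes described here are 38 genes of mitosis and the G2/M transition, the step from the second gap phase of the cell cycle into division. They were taken by symbol from a list made with earlier results of these data known, so the values here are a description. The list is Ccna2, Ccnb1, Ccnb2, Cdk1, Cdc25c, Plk1, Foxm1, Cdca3, Bub1, Bub1b, Mad2l1, Ttk, Cdc20, Ube2c, Espl1, Aurkb, Incenp, Birc5, Cdca8, Cenpa, Cenpe, Cenpf, Ndc80, Nuf2, Aurka, Tpx2, Nusap1, Kif11, Kif2c, Kif4, Kif20a, Kif23, Racgap1, Prc1, Ect2, Anln, Top2a and Mki67. All 38 were found among the 22195 genes of the tables, and all 38 were among the 12980 genes with enough reads to be tested.

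RNA was sequenced from whole skin tumors grown under the skin of immunocompetent C57BL/6J mice from YUMMER1.7, a mouse melanoma line whose ultraviolet-induced mutations make it visible to the immune system. Treatment began when tumors measured 20 to 50 mm3, with an IgG isotype control antibody, an antibody to B7-H3 or an antibody to PD1, and each group has 3 libraries. B7-H3 and PD1 are immune checkpoint proteins. A combination of both antibodies that the series text mentions was not analysed here. All tumors come from 1 cell line, and each is a mixture of tumor, stromal and immune cells of the host. In such bulk samples fewer cells of a type and less RNA per cell cannot be told apart. Whether each library is a separate mouse is not stated; p-values here measure no more than the spread among these samples, which may be technical.

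Cyclin-dependent kinase 1 (Cdk1), bound to cyclin A or cyclin B, drives cells into mitosis. Kinetochores then attach chromosomes to the spindle, a checkpoint holds the anaphase-promoting complex in check until attachment is complete, and the central spindle and contractile ring split the cell. Transcripts of these genes accumulate in G2 and mitosis and are low in resting cells, so their level in a tumor is widely read as a sign of cycling cells.

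The libraries differed between groups before any gene of interest was considered. Estimated reads ran from 13624172 to 27288766 with IgG, 10105153 to 15447583 with anti-B7-H3 and 8627930 to 11256181 with anti-PD1. In the IgG libraries 87.0 to 92.0% of reads fell on 12 genes made of major satellite repeat, against 5.2 to 28.2% with anti-B7-H3 and 14.6 to 38.2% with anti-PD1. Reads outside those genes came to 1252540 to 3546706 with IgG, 7239044 to 14408350 with anti-B7-H3 and 5326276 to 9583684 with anti-PD1. A single mitotic gene therefore had between 15 and 2873 reads in an IgG library and between 117 and 12756 in an antibody library. Library anti-PD1 2 stood apart in another way, described with gene length further on. Of 12 melanocyte lineage genes, Mitf, Kit and Ednrb were tested. Tyr, Tyrp1, Dct, Mlana, Sox10, Slc45a2 and Gpr143 had no reads in at least 1 library, and Mlana stayed at or below 0.46 CPM (counts scaled for library size) in all 9.

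Many mitotic genes carry a cell cycle homology region near their start, written TTTGAA or TTTAAA, and upstream CCAAT boxes bound by the factor NF-Y. RefSeq start-site windows on build GRCm38.p6, reaching from 250 bases before to 50 after the start, were matched for 31 of the 38 genes, with 33 windows because Ect2 and Prc1 have more than 1. The 110 bases before the start are shown for 9 genes. They are those among the 4 smallest p-values of a comparison with anti-PD1 that have a matched window, plus Ccnb1, Ube2c and Top2a. Ccnb1, Ube2c and Top2a hold both kinds of element in that stretch and are not typical of the group. Ube2c and Top2a have 6 CCAAT boxes each in their windows, the most of the 33. In others, such as Anln, Ndc80 and Kif4, TTTGAA or TTTAAA lies only past the start. Capitals mark these elements on either strand. On the reverse strand TTTGAA appears as TTCAAA, and a CCAAT box as ATTGG.
Cdk1, chr10:69352913-69353022, minus strand: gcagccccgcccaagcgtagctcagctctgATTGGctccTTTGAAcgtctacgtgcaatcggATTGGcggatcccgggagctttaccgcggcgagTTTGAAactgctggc
Ccnb1, chr13:100786487-100786596, minus strand: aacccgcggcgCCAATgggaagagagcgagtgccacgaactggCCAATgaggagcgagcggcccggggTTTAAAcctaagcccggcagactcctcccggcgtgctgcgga
Ube2c, chr2:164769819-164769928, plus strand: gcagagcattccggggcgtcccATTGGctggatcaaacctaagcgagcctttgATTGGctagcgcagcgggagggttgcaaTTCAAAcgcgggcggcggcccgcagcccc
Top2a, chr11:99024190-99024299, minus strand: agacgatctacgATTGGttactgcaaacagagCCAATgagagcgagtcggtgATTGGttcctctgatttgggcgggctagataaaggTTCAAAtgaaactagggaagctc
Ccnb2, chr9:70421555-70421664, minus strand: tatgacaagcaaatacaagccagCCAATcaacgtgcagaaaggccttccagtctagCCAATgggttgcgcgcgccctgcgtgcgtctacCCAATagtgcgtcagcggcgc
Cdca3, chr6:124830066-124830175, plus strand: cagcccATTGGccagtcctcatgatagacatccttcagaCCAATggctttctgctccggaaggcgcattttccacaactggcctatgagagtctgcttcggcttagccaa
Bub1, chr2:127831860-127831969, minus strand: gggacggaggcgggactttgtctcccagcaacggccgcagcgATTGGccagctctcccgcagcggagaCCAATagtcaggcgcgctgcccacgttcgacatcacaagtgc
Mad2l1, chr6:66535111-66535220, plus strand: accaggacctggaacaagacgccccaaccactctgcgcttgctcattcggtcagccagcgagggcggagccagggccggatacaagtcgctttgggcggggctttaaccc
Nusap1, chr2:119618188-119618297, plus strand: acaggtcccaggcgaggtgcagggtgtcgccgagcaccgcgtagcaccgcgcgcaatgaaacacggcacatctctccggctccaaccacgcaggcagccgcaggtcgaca
Within the stretch printed for Ccnb1, Ube2c and Top2a, the CCAAT boxes lie upstream and the other element lies closer to the start. Cdk1 has 1 copy of that element nearest the start, at position -15, and another at -71, between its CCAAT boxes at -80 and -48. Cdca3 has its copy 31 bases past the start, and Ccnb2 has copies at positions 5 and -167 relative to it, all beyond the stretch printed. Bub1 has CCAAT boxes only, and Mad2l1 and Nusap1 have neither set of letters in the 300 bases searched.

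Searched on both strands, TTTGAA or TTTAAA was present in 29 of 33 windows (87.9%), against 27.6% of all 32851 windows of the same length and 25% of 21263 windows of protein-coding genes. Within 50 bases of the start it was present in 26 of 33 (78.8%), against 8.28% of all windows. TTTGAA alone was present in 26 windows (78.8% against 17.9%) and TTTAAA, which reads the same on both strands, in 9 (27.3% against 13.2%). CCAAT was present in 26 (78.8% against 37.4%), and 25 windows held both kinds of element (75.8% against 10.7%). The copies of the different motifs overlapped in Cdca8 only. A pair of CCAAT boxes with starts 30 to 36 bases apart, a spacing picked after the sequences had been seen, was present in 7 windows (21.2% against 1.87%). The member windows had a median GC content of 59.0%, against 52.7% for all windows and 56.3% for those of protein-coding genes. TATAAA was present in 1 window (3.03% against 13.6%), and TTCCCGC, a form of the E2F element of G1/S genes, was in 0 (against 4.6%), which says only that these letters are not in these windows. The 4 genes with a window but no TTTGAA or TTTAAA were Nuf2, Nusap1, Bub1 and Mad2l1, and their log2 fold changes for anti-PD1 against IgG were 0.51, 0.46, 0.65 and 0.64. These are matches of letters, not measured binding.

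In the tumors themselves, the mitotic genes were expressed at very unequal levels. Per kilobase of effective coding length, averaged over the 9 libraries, Top2a, the topoisomerase that untangles sister chromatids, was highest at 76.8 CPM per kb. Birc5 (survivin, of the chromosomal passenger complex) followed at 62.3 CPM per kb and Ube2c, the ubiquitin-conjugating enzyme of the anaphase-promoting complex, at 59.8 CPM per kb. The lowest were Espl1 (separase, which cuts cohesin at anaphase) at 5.52 CPM per kb, the phosphatase gene Cdc25c at 6.35 CPM per kb and the checkpoint kinase gene Ttk at 6.67 CPM per kb.

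**Figure D1:**
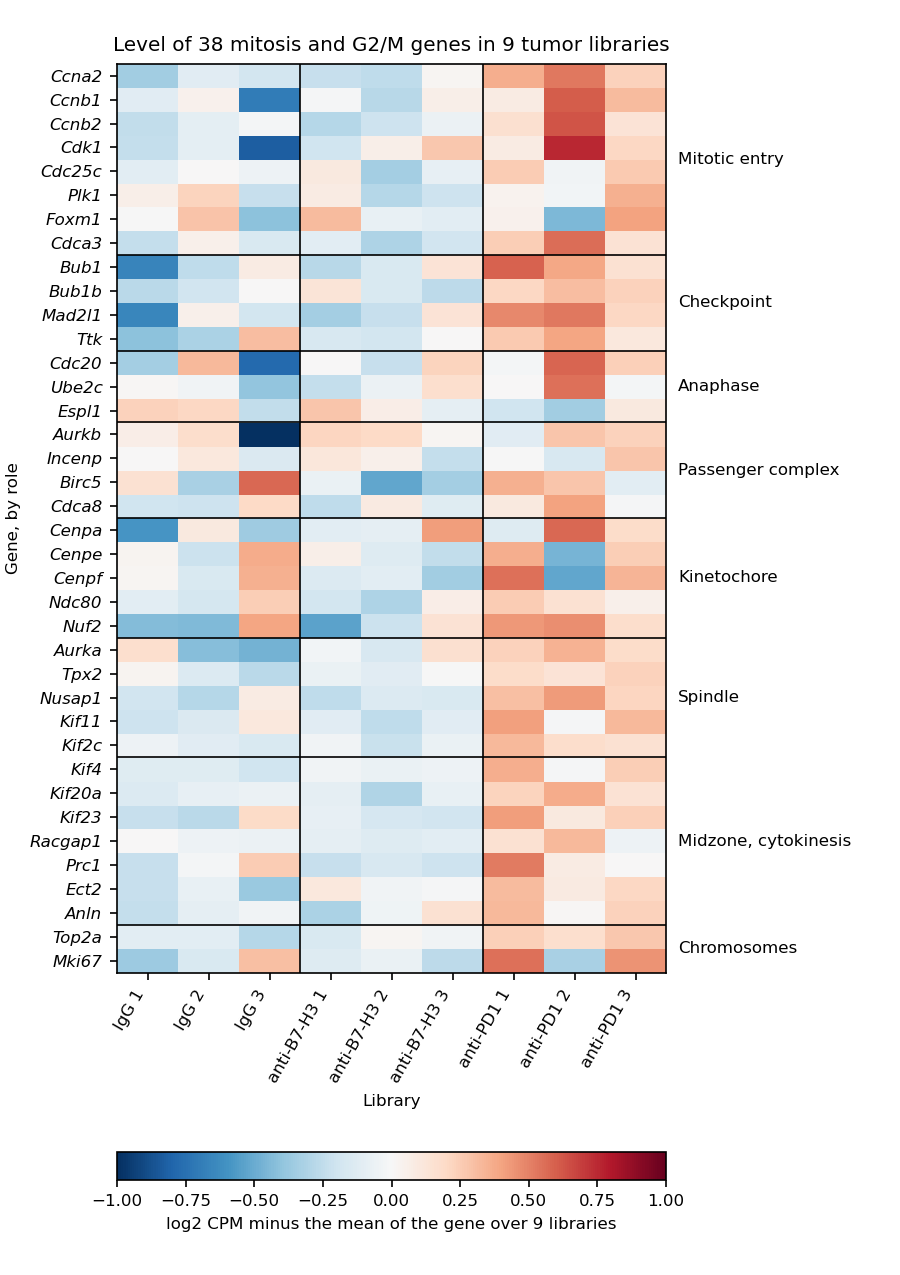
Level of each of the 38 genes (one line per gene, ordered by role) in each of the 9 libraries, as log2 CPM minus the mean of the gene over the 9; blue is below and red above that mean, and the color scale ends at 1 in each direction. The 3 anti-PD1 columns are mostly red (33, 28 and 34 of 38 genes above their mean), while anti-B7-H3 and IgG columns are mostly blue. Over all tested genes the median level lay between -0.02 and 0.03 in every library.

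Across the group, anti-PD1 tumors had the higher levels and anti-B7-H3 tumors resembled IgG tumors in the median. The summed level of the 38 genes was 1920 to 2150 CPM in IgG libraries, 2000 to 2020 CPM in anti-B7-H3 libraries and 2270 to 2690 CPM in anti-PD1 libraries, with no overlap between anti-PD1 and the other groups. Relative to each gene's own mean over the 9 libraries, the median gene stood at -0.16, -0.10 and -0.10 (log2) with IgG, at -0.10, -0.16 and -0.06 with anti-B7-H3 and at 0.25, 0.28 and 0.21 with anti-PD1. The highest of the 9 libraries was an anti-PD1 library for 35 of the 38 genes: number 2 for 18, number 1 for 11 and number 3 for 6. IgG 3 was highest for 2 genes and anti-B7-H3 1 for 1. The highest library was not counted over all tested genes, so these counts cannot be read as particular to mitotic genes. Over all tested genes the lower and upper quartiles of the relative level were -0.37 and 0.34 in anti-PD1 2. In IgG 3 they were -0.36 and 0.48.

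No single mitotic gene passed the threshold of an adjusted p below 0.05 in any comparison by edgeR's quasi-likelihood test with Benjamini-Hochberg adjustment over the 12980 genes. Each comparison's own values follow. They share libraries, so they are given side by side and are not independent of one another.

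For anti-PD1 against IgG, 37 of the 38 log2 fold changes were above 0 (50.4% of all tested genes were), with Espl1 the exception. Their median was 0.33 and their range -0.23 to 0.71, beside a median of 0.01 for all tested genes. By the adjusted edgeR test 0 of 38 were called (0.408% of all genes were, 1 higher and 52 lower), with a smallest adjusted p of 0.118. At an unadjusted p below 0.05 there were 12, all higher (18.5% of all genes, 997 higher and 1409 lower): Ccna2, Ccnb1, Ccnb2, Cdk1, Cdca3, Bub1, Bub1b, Mad2l1, Aurka, Nusap1, Kif4 and Ect2. Leaving out IgG 1 reduced these 12 to 4 (13.1% of all genes), and the smallest adjusted p was then 0.218. DESeq2 called 2 members, Ccna2 and Top2a, among 822 of the 12980 genes (181 higher and 641 lower). Limma-voom called 0 members and 82 genes. With sample quality weights it called 2 members, Ccna2 and Bub1, among 433 genes (132 higher and 301 lower). All 3 anti-PD1 libraries lay above all 3 IgG libraries for 17 of 38 genes, as they did for 11.1% of all tested genes.

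For anti-B7-H3 against anti-PD1, 36 of the 38 changes were below 0 and 2 above it, Foxm1 and Espl1 (51.1% of all tested genes were above 0). The median was -0.30, beside 0.01 for all genes. By the adjusted edgeR test 0 members were called, as were 0.0% of all genes. DESeq2 and both limma-voom fits also called 0 members, with 24, 0 and 0 of all genes. The smallest adjusted p was 0.749. At an unadjusted p below 0.05 there were 9 members, all lower with anti-B7-H3 (6.48% of all genes): Ccna2, Ccnb2, Cdca3, Bub1, Mad2l1, Nusap1, Kif11, Kif20a and Kif23. That count was 4 without anti-B7-H3 2 (3.55% of all genes) and 5 without anti-PD1 1 (3.32%). It was 15 (9.43%) without IgG 3, which enters only through the shared scale and spread. All 3 anti-PD1 libraries exceeded all 3 anti-B7-H3 libraries for 20 members, against 7.89% of all tested genes.

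For anti-B7-H3 against IgG, 19 changes were above 0 and 19 below (53.3% of all tested genes were above 0). Their median was 0.00 and their range -0.44 to 0.39. By the adjusted edgeR test 0 members were called, against 0.609% of all genes, with a smallest adjusted p of 0.571. There were 0 members at an unadjusted p below 0.05, against 10.6% of all genes. DESeq2 and both limma-voom fits called 0 members, with 502, 77 and 366 of all genes. All anti-B7-H3 libraries lay above all IgG libraries for 2 members, Kif4 and Ect2 (7.73% of all genes), and below them for 1, Racgap1 (8.56% of all genes).

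One test over the 3 groups called 0 members (1.22% of all genes), with a smallest adjusted p of 0.174. It gave an unadjusted p below 0.05 for 8 (14.0% of all genes): Ccna2, Ccnb2, Cdk1, Cdca3, Bub1, Mad2l1, Nusap1 and Kif20a. DESeq2 called 2 over the 3 groups, Ccna2 and Nusap1, among 778 of the 12980 genes. Both limma-voom fits called 0 members, with 76 of all genes and, with quality weights, 317. For 14 of the 38, every anti-PD1 library exceeded all 6 other libraries (2.9% of all tested genes): Ccna2, Ccnb1, Ccnb2, Cdca3, Bub1, Bub1b, Mad2l1, Aurka, Tpx2, Nusap1, Kif2c, Kif4, Kif20a and Top2a. By role these were 4 of 8 entry genes, 3 of 4 checkpoint genes, 4 of 5 spindle genes, 2 of 7 midzone and cytokinesis genes and 1 of 2 chromosome genes, with 0 among the anaphase, passenger complex and kinetochore genes.

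**Figure D2:**
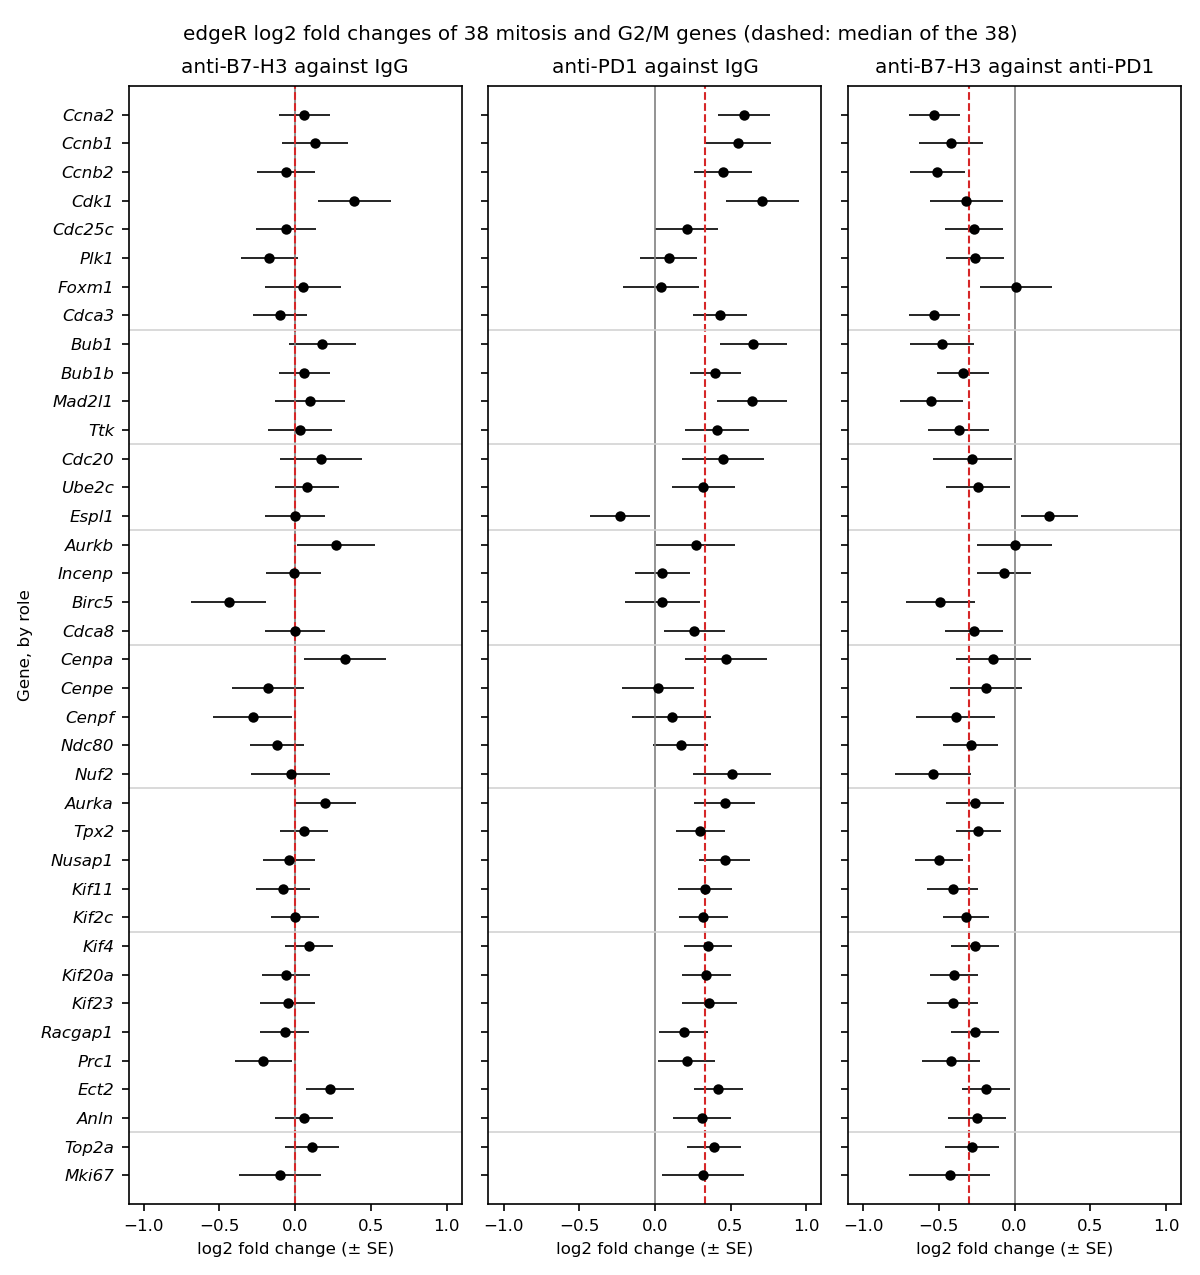
Log2 fold change (point) and standard error (bar) of the 38 genes in the 3 comparisons, ordered by role, with the median of the 38 as a dashed line. The medians lie at 0.00, 0.33 and -0.30, and the points in the middle panel lie right of 0 for 37 genes.

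These values depend on the scale. TMM sets the typical gene to no change, so each value is relative to it. Dividing by library totals instead, which counts the satellite reads, moved the medians. For anti-B7-H3 against IgG the median of every tested gene became 3.37 and that of the 38 became 3.36. In the anti-PD1 comparison with IgG they became 3.15 and 3.5. A change of scale moves all genes of a library alike, so it largely keeps their place relative to the typical gene by construction. With no filter on low counts, 36 members were above 0 for anti-B7-H3 against IgG and their median was 0.23, while that of all genes was -0.04.

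Among the 8 genes of mitotic entry, the median log2 fold change was 0.44 for anti-PD1 against IgG, -0.37 for anti-B7-H3 against anti-PD1 and 0.00 for anti-B7-H3 against IgG. Ccna2 encodes cyclin A2, which partners Cdk1 and Cdk2 from S phase to early mitosis. Its level was 41.8, 49.1 and 46.9 CPM with IgG, 45.3, 44.7 and 54.0 CPM with anti-B7-H3 and 68.4, 76.6 and 62.3 CPM with anti-PD1. All 3 anti-PD1 libraries were above all 6 others. The log2 fold change was 0.59 ± 0.17 (SE) for anti-PD1 against IgG (edgeR adjusted p = 0.118) and -0.53 ± 0.17 for anti-B7-H3 relative to anti-PD1 (edgeR adjusted p = 0.749). Against IgG, anti-B7-H3 gave 0.06 ± 0.17, the groups overlapping.

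Ccnb2, a B-type cyclin, had a like order. It stood at 22.4, 24.9 and 26.2 CPM with IgG, 21.8, 23.0 and 25.6 CPM with anti-B7-H3 and 29.8, 41.1 and 29.3 CPM with anti-PD1. Anti-PD1 2 was the highest and the other anti-PD1 libraries were closer to the rest. The log2 fold change was 0.45 ± 0.19 for anti-PD1 against IgG (edgeR adjusted p = 0.226) and -0.51 ± 0.18 for anti-B7-H3 relative to anti-PD1 (edgeR adjusted p = 0.749). Cdca3, a protein that promotes destruction of the mitosis inhibitor Wee1, measured 17.3, 21.2 and 18.4 CPM with IgG, 19, 16.5 and 17.9 CPM with anti-B7-H3 and 24.3, 30.2 and 22.6 CPM with anti-PD1. Again the anti-PD1 libraries did not overlap the others, with changes of 0.43 ± 0.18 against IgG and -0.53 ± 0.17 for anti-B7-H3 relative to anti-PD1.

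Cdk1, the mitotic kinase itself, was at 33.2, 36.7 and 22.1 CPM with IgG, 34.1, 40.8 and 47.3 CPM with anti-B7-H3 and 41.4, 66.0 and 45.2 CPM with anti-PD1. IgG 3 was lowest, anti-PD1 2 highest, and the anti-B7-H3 libraries lay between and overlapped both groups. The changes were 0.71 ± 0.24 for anti-PD1 against IgG, the largest of the 38 in that comparison (edgeR adjusted p = 0.167), and 0.39 ± 0.24 for anti-B7-H3 against IgG (edgeR adjusted p = 0.624). Cdc25c, the phosphatase that activates Cdk1, was low: 6.61, 7.15 and 6.89 CPM with IgG, 7.62, 5.61 and 6.71 CPM with anti-B7-H3 and 8.52, 6.94 and 8.55 CPM with anti-PD1. Its groups overlapped. Of the other 3 entry genes, Ccnb1 (cyclin B1) had a change of 0.55 ± 0.22 for anti-PD1 against IgG. The values for the kinase gene Plk1 (0.09 ± 0.19) and for Foxm1, the transcription factor that activates many of these genes (0.04 ± 0.25), were smaller than their standard errors.

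The 4 spindle checkpoint genes had the largest median of any role for anti-PD1 against IgG, 0.53, with -0.43 for anti-B7-H3 relative to anti-PD1. Bub1, a checkpoint kinase at the kinetochore, was at 18.9, 25.1 and 31.7 CPM with IgG, 24.6, 26.8 and 32.9 CPM with anti-B7-H3 and 45.1, 39.2 and 33.2 CPM with anti-PD1. Anti-PD1 libraries were highest, though anti-PD1 3 exceeded anti-B7-H3 3 by a narrow margin. The changes were 0.65 ± 0.22 against IgG (edgeR adjusted p = 0.163) and -0.48 ± 0.21 for anti-B7-H3 relative to anti-PD1. Mad2l1, which encodes the Mad2 inhibitor of Cdc20, was at 7.58, 12.4 and 10.6 CPM with IgG, 9.46, 10.2 and 13.2 CPM with anti-B7-H3 and 16.8, 17.4 and 13.9 CPM with anti-PD1. It too did not overlap, with 0.64 ± 0.23 against IgG (edgeR adjusted p = 0.176) and -0.55 ± 0.21 for anti-B7-H3 relative to anti-PD1. Bub1b (BubR1, of the same inhibitory complex) was at 53.9, 56.9 and 65.3 CPM with IgG, 70.9, 58.4 and 54.3 CPM with anti-B7-H3 and 74.9, 80.7 and 76.3 CPM with anti-PD1. Here the anti-PD1 libraries were tightly grouped above the rest, at 0.40 ± 0.17 against IgG. Ttk (Mps1, the kinase that starts the checkpoint) was at 11.1, 11.8 and 18.4 CPM with IgG, 13.2, 13 and 14.8 CPM with anti-B7-H3 and 17.8, 19.5 and 15.9 CPM with anti-PD1. IgG 3 overlapped the anti-PD1 libraries, and the change was 0.41 ± 0.21.

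The 3 anaphase genes overlapped between groups. Cdc20, the activator of the anaphase-promoting complex that the checkpoint restrains, was at 28.0, 44.3 and 20.7 CPM with IgG, 35.4, 30.1 and 41.3 CPM with anti-B7-H3 and 35.0, 53.1 and 41.7 CPM with anti-PD1. The IgG libraries alone differed by more than the group means, and the change for anti-PD1 against IgG was 0.45 ± 0.27. Ube2c was at 22.0, 21.2 and 16.5 CPM with IgG, 18.5, 20.9 and 24.5 CPM with anti-B7-H3 and 21.8, 32.0 and 21.5 CPM with anti-PD1. Anti-PD1 2 was the highest library and IgG 3 the lowest, and the change was 0.32 ± 0.21. Espl1 was at 39.1, 38.4 and 28.0 CPM with IgG, 40.4, 34.9 and 31.2 CPM with anti-B7-H3 and 29.1, 26.1 and 35.7 CPM with anti-PD1. It was the member with a negative value for anti-PD1 against IgG, -0.23 ± 0.20, and its groups overlapped.

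The chromosomal passenger complex, which corrects wrong attachments and then moves to the midzone, had the smallest median of any role for anti-PD1 against IgG. Over its 4 genes that median was 0.16, and for anti-B7-H3 against IgG it was -0.01. Birc5 was at 17.1, 12.3 and 23.0 CPM with IgG, 14.7, 10.7 and 12.2 CPM with anti-B7-H3 and 19.7, 18.7 and 14.3 CPM with anti-PD1. It had the smallest p of the 38 for anti-B7-H3 against IgG, with a change of -0.44 ± 0.25 (edgeR adjusted p = 0.571). Its IgG libraries spanned the range of all 3 groups, apart from anti-B7-H3 2 and 3 just below them. Aurkb, the kinase of the complex, was at 15.4, 16.6 and 6.89 CPM with IgG, 17.1, 16.9 and 14.9 CPM with anti-B7-H3 and 13.6, 17.9 and 17.3 CPM with anti-PD1. IgG 3 was lowest and the other 8 libraries were alike. Cdca8 (borealin) was at 10.1, 10 and 13.3 CPM with IgG, 9.72, 12.3 and 10.6 CPM with anti-B7-H3 and 12.5, 15.4 and 11.5 CPM with anti-PD1, with overlap, and the scaffold gene Incenp had a change of 0.05 ± 0.18 for anti-PD1 against IgG.

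The 5 kinetochore genes had medians of 0.17 for anti-PD1 against IgG, with -0.29 for anti-B7-H3 relative to anti-PD1. Nuf2, of the microtubule-binding Ndc80 complex, was at 16.5, 16.4 and 29.4 CPM with IgG, 15.3, 19.2 and 24.7 CPM with anti-B7-H3 and 30.2, 30.8 and 25.2 CPM with anti-PD1. IgG 3 reached the anti-PD1 range and the other IgG libraries were well below it. The change was 0.51 ± 0.26 against IgG and -0.54 ± 0.25 for anti-B7-H3 relative to anti-PD1. Cenpa, the histone variant that marks centromeres, was at 7.00, 11.4 and 8.27 CPM with IgG, 9.87, 9.94 and 14.2 CPM with anti-B7-H3 and 9.68, 15.9 and 12 CPM with anti-PD1. All groups overlapped, with 0.33 ± 0.27 for anti-B7-H3 against IgG. Ndc80 itself was at 22.4, 21.2 and 28.5 CPM with IgG, 21.2, 19.4 and 25.1 CPM with anti-B7-H3 and 28.6, 26.8 and 24.9 CPM with anti-PD1. IgG 3 again overlapped anti-PD1. The very long genes Cenpe (a kinesin) and Cenpf had changes of 0.02 ± 0.24 and 0.11 ± 0.26 for anti-PD1 against IgG.

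Among the 5 genes of spindle assembly the median was 0.33 for anti-PD1 against IgG, with -0.32 for anti-B7-H3 relative to anti-PD1. Nusap1, a microtubule-bundling protein, was at 16.3, 15.3 and 19.8 CPM with IgG, 15.6, 17.0 and 16.8 CPM with anti-B7-H3 and 23.0, 25 and 21.7 CPM with anti-PD1. The groups did not overlap for anti-PD1, with 0.46 ± 0.17 against IgG (edgeR adjusted p = 0.19) and -0.50 ± 0.16 for anti-B7-H3 relative to anti-PD1 (edgeR adjusted p = 0.749). Kif11 (Eg5), which pushes the spindle poles apart, was at 61.2, 64.2 and 76.3 CPM with IgG, 65.6, 59.4 and 65.3 CPM with anti-B7-H3 and 93.9, 70.4 and 88.5 CPM with anti-PD1. Anti-PD1 2 lay below IgG 3 but above every anti-B7-H3 library. Kif2c (MCAK), which depolymerises misattached microtubules, was at 25.1, 24.0 and 23.4 CPM with IgG, 25.4, 22.3 and 24.8 CPM with anti-B7-H3 and 32.6, 29.4 and 28.9 CPM with anti-PD1. Its anti-PD1 libraries stood clear of the rest, at 0.32 ± 0.16 against IgG. Aurora A kinase (Aurka) and its activator Tpx2 had changes of 0.46 ± 0.20 and 0.30 ± 0.16 in that comparison.

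The 7 genes of the midzone and cytokinesis had medians of 0.34 for anti-PD1 against IgG, -0.26 for anti-B7-H3 against anti-PD1 and -0.05 for anti-B7-H3 against IgG. Kif20a, a kinesin of the central spindle, was at 55.2, 57.4 and 58.4 CPM with IgG, 56.9, 49.1 and 57.6 CPM with anti-B7-H3 and 70.9, 78.4 and 67 CPM with anti-PD1. The anti-PD1 libraries did not overlap the others, at 0.34 ± 0.16 against IgG and -0.40 ± 0.16 for anti-B7-H3 relative to anti-PD1. Ect2, the exchange factor that switches on RhoA at the cleavage site, was at 28.4, 31.6 and 25.7 CPM with IgG, 35.7, 32.5 and 33.1 CPM with anti-B7-H3 and 41.4, 35.4 and 38.5 CPM with anti-PD1. Both antibody groups lay above IgG, with 0.23 ± 0.16 for anti-B7-H3 (edgeR adjusted p = 0.663) and 0.42 ± 0.16 for anti-PD1 (edgeR adjusted p = 0.205), and anti-PD1 2 fell below anti-B7-H3 1. Kif23, which forms the centralspindlin complex with Racgap1, was at 34.4, 33.4 and 46.0 CPM with IgG, 38, 35.9 and 35.2 CPM with anti-B7-H3 and 54.0, 43.2 and 47.5 CPM with anti-PD1. IgG 3 overlapped anti-PD1. The other 4, Kif4, Racgap1, Prc1 and Anln, had changes of 0.35, 0.19, 0.21 and 0.31 for anti-PD1 against IgG, with standard errors of 0.16, 0.16, 0.19 and 0.19. Kif4 and Racgap1, named above for their order against IgG and picked out after their values had been seen, differed little in size: Kif4 averaged 32.9 ± 1.02 CPM (SD, n = 3) in IgG tumors and 35.1 ± 0.371 CPM in anti-B7-H3 tumors, and Racgap1 averaged 54.0 ± 1.2 and 51.4 ± 0.718 CPM.

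Top2a and Mki67 act on the chromosomes themselves, Mki67 as the Ki-67 protein that coats them and serves pathology as a marker of cycling cells. Top2a was at 312, 312 and 276 CPM with IgG, 302, 342 and 328 CPM with anti-B7-H3 and 397, 378 and 406 CPM with anti-PD1. The anti-PD1 libraries were above the 6 others, with 0.39 ± 0.18 against IgG (edgeR adjusted p = 0.282) and -0.28 ± 0.18 for anti-B7-H3 relative to anti-PD1 (edgeR adjusted p = 0.782). Mki67 was at 277, 321 and 438 CPM with IgG, 325, 340 and 297 CPM with anti-B7-H3 and 522, 285 and 485 CPM with anti-PD1. Anti-PD1 2 was as low as the lowest IgG and anti-B7-H3 libraries while the other anti-PD1 libraries were the highest of the 9. The change was 0.32 ± 0.27 against IgG, with overlap between all groups.

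**Figure D3:**
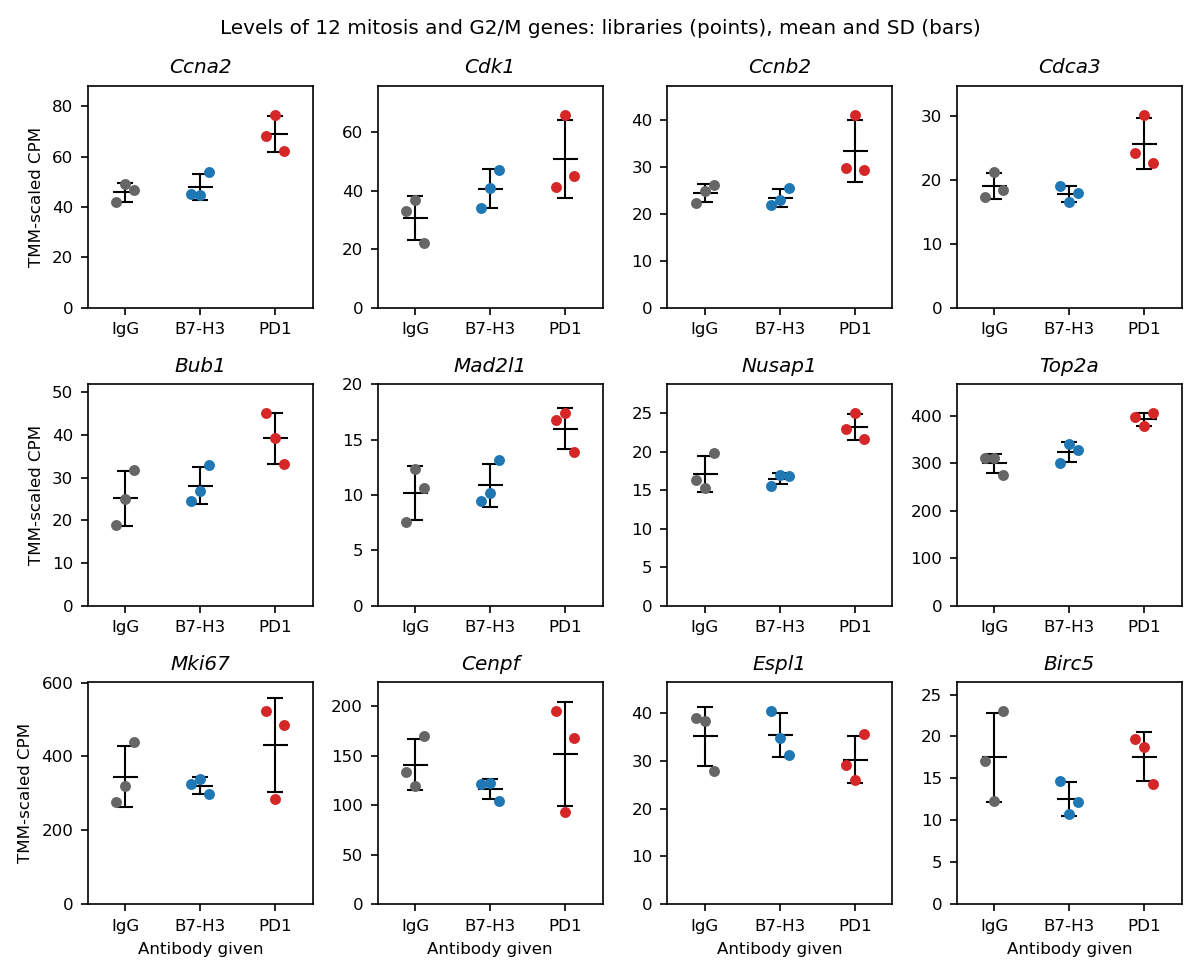
TMM-scaled CPM of 12 mitotic genes in each library (points), with the mean and SD of the 3 libraries of a group (bars). Anti-PD1 points lie above the other groups for Ccna2, Ccnb2, Cdca3, Bub1, Mad2l1, Nusap1 and Top2a, and overlap them for Cdk1, Mki67, Cenpf, Espl1 and Birc5.

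Other long genes were also low in anti-PD1 2. In that library Spearman's rho between a gene's coding length and its level relative to its own mean was -0.71 across the 38 genes, and -0.47 across all 12980 tested genes. It was 0.36 across the members in anti-PD1 1 and 0.44 in anti-PD1 3 (0.03 and 0.15 across all tested genes). These are correlations across genes of 1 library, which share its depth and preparation and are not independent replicates. Within anti-PD1 2, the 19 members with a coding length of at most 1659 bases had a median relative level of 0.46 and the 19 of at least 1735 bases one of 0.09. Cenpf, one of the longest, was at 92.9 CPM in that library, the lowest of the 9, and at 195 and 168 CPM in anti-PD1 1 and 3. Espl1 and Foxm1 were also lowest there, at 26.1 and 22.4 CPM. Taken over the group, both length sets were above 0 for anti-PD1 against IgG, with medians of 0.45 for the shorter set (19 of 19 positive) and 0.32 for the longer set (18 of 19), beside 0.07 and -0.11 for all tested genes of those lengths. Without anti-PD1 2, 37 of 38 genes were still above 0, the median was 0.34, and 11 had an unadjusted p below 0.05 (13.8% of all genes). The part of length, RNA quality or preparation in these values was not tested.

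**Figure D4:**
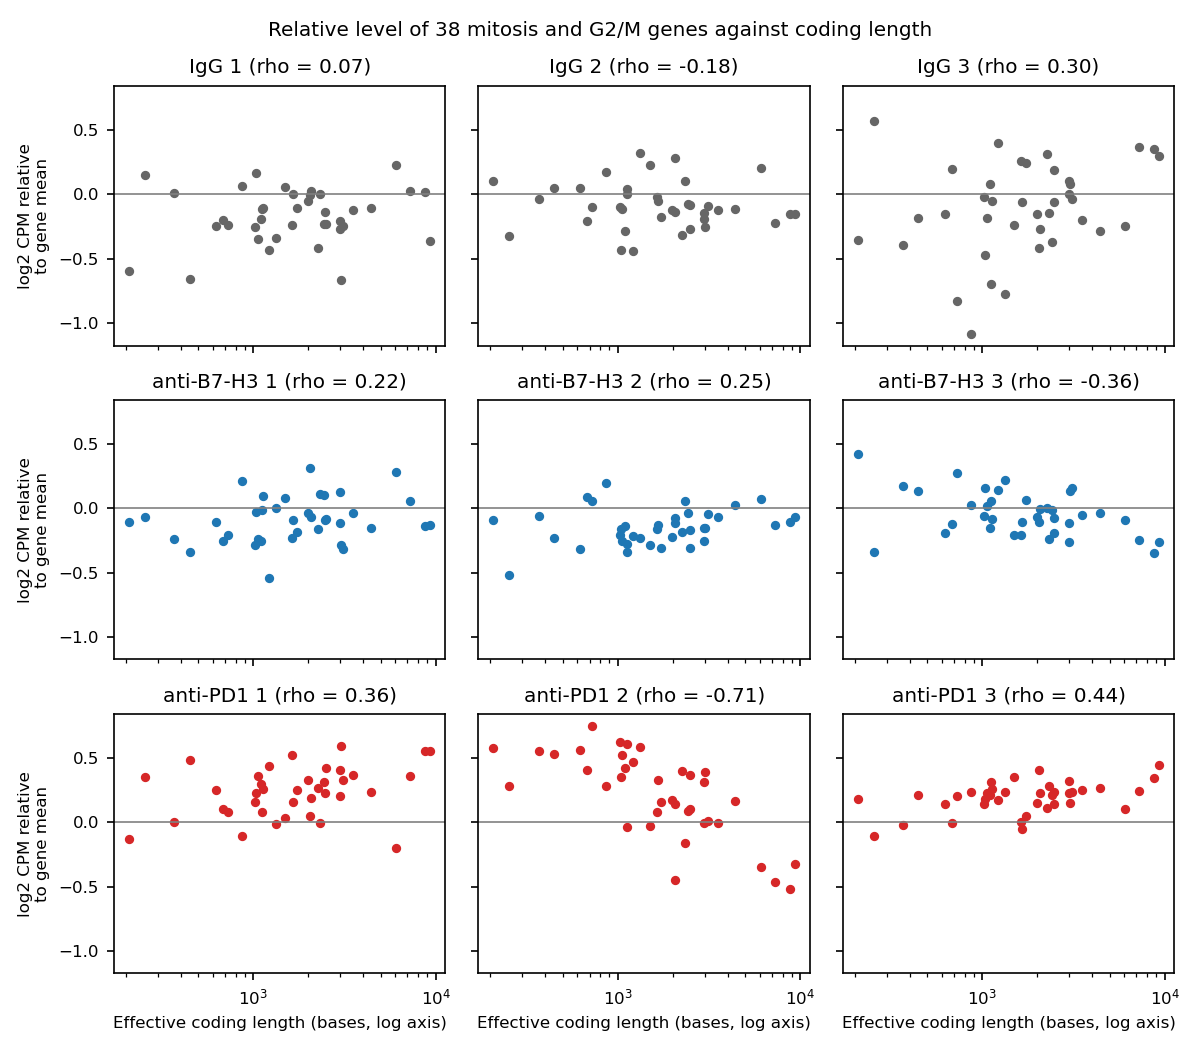
Relative level (log2 CPM minus the mean of the gene over 9 libraries) of the 38 genes against effective coding length on a log axis, in 1 panel per library with Spearman's rho across the 38. Anti-PD1 2 has the steepest slope (-0.71), with short genes high and long genes low.

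Satellite share, depth and a receptor background moved with the comparison against IgG. Reads on 1510 olfactory and vomeronasal receptor genes, a measure of background, came to 765 to 4840 CPM of reads outside satellite genes with IgG, 40.4 to 198 with anti-B7-H3 and 78.3 to 280 with anti-PD1. These measures separate IgG from both antibody groups. Between the antibody groups they lean one way with overlapping ranges. The satellite share was 38.2, 19.8 and 14.6% with anti-PD1 and 28.2, 5.2 and 6.4% with anti-B7-H3, and the receptor level 280, 78.3 and 113 CPM against 198, 41.3 and 40.4 CPM. Their part in any of the 3 comparisons was not tested.

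Cell type markers were read in the same libraries. For 0 of 9 marker lists did the summed level of every anti-PD1 library exceed the 6 others. T cell markers summed to 16.4 to 49.2 CPM with IgG, 28.7 to 46.2 with anti-B7-H3 and 18.4 to 33.8 with anti-PD1, and endothelial markers to 101 to 142, 87.7 to 150 and 112 to 125 CPM. Macrophage and monocyte markers came to 564 to 1150, 1090 to 1710 and 879 to 2270 CPM, fibroblast markers to 3060 to 8080, 5770 to 9150 and 5290 to 6810 CPM and skeletal muscle markers to 117 to 199, 25.5 to 3690 and 246 to 1790 CPM. Melanocyte lineage markers came to 10.9 to 40.4, 9.33 to 10.4 and 9.30 to 14.7 CPM, and B cell markers to 3.46 to 14.2, 2.78 to 3.68 and 3.37 to 4.61 CPM. For 2 lists every IgG library exceeded the 6 others: keratinocyte markers, at 27.8 to 80.4, 0.75 to 3.53 and 1.85 to 5.90 CPM, and erythroid markers, at 66.1 to 362, 21.0 to 56.2 and 23.4 to 42.0 CPM. None of the 9 lists had a member at 0 in all libraries.

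The summed levels follow the most abundant markers, and counts over single markers moved with the comparisons too. Of the 18 macrophage and monocyte markers, 16 were above 0 for anti-PD1 against IgG (median log2 change 0.81, 6 higher and 1 lower at an unadjusted p below 0.05) and 17 for anti-B7-H3 against IgG (median 0.91, 9 higher and 0 lower). All 14 skeletal muscle markers were above 0 in both comparisons with IgG, with medians of 3.53 for anti-PD1 and 3.52 for anti-B7-H3 and 0 at an unadjusted p below 0.05. Between the antibody groups 16 of 18 T cell markers were above 0 for anti-B7-H3 relative to anti-PD1 (median 0.54, 1 higher at an unadjusted p below 0.05), against 2 of the 38 mitotic genes. Of the 12 fibroblast markers, 12 were above 0 for anti-B7-H3 against IgG (median 0.28), 8 for anti-PD1 against IgG (median 0.15) and 7 for anti-B7-H3 relative to anti-PD1 (median 0.16). Postn (periostin), the fibroblast marker with the smallest p over the 3 groups, was at 241, 305 and 278 CPM with IgG, 480, 353 and 353 CPM with anti-B7-H3 and 576, 899 and 559 CPM with anti-PD1, so that the 3 groups did not overlap. In these 4 lists edgeR called 0 markers in any of the 3 comparisons. In the keratinocyte and erythroid lists it called 1 marker each for anti-B7-H3 against IgG (0.609% of all genes). Over the 3 groups it called 2 keratinocyte markers and 1 erythroid marker (1.22% of all genes). All 3 keratinocyte and all 5 erythroid markers tested were below 0 in both comparisons with IgG. Which cells supplied the mitotic transcripts, and the part of these cell types in the results, was not tested.

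The mitotic list is a part of a larger programme. Of 96 other genes of mitosis and G2/M, 92 were tested. In the anti-PD1 comparison with IgG 75 were above 0 (50.4% of all tested genes were), with a median of 0.28. At an unadjusted p below 0.05, 21 were higher and 1 lower (18.5% of all genes, 997 higher and 1409 lower). For anti-B7-H3 against anti-PD1, 73 were below 0 with a median of -0.27 (51.1% of all tested genes were above 0). Against IgG, anti-B7-H3 gave 47 above 0 with a median of 0.02 (53.3% of all tested genes were above 0). By edgeR's adjusted test 0 were called in any pair of groups. The member of this list with the second smallest p over the 3 groups was Cep55, of the abscission machinery, at 15.9, 14.3 and 17.9 CPM with IgG, 16.6, 16.8 and 15 CPM with anti-B7-H3 and 26.4, 23.2 and 24.6 CPM with anti-PD1. Its groups did not overlap for anti-PD1, at 0.64 ± 0.17 against IgG (edgeR adjusted p = 0.0991).

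The 40 genes of G1/S and DNA replication, active in the preceding phases, are given beside them. Their medians were 0.29 for anti-PD1 against IgG, 0.15 for anti-B7-H3 against IgG and -0.10 for anti-B7-H3 relative to anti-PD1, and 0 were called by edgeR in any pair. For anti-PD1 against IgG 29 were above 0 (50.4% of all tested genes were). At an unadjusted p below 0.05, 9 were higher and 1 lower (18.5% of all genes). Pcna, the sliding clamp of replication, was at 33.1, 40.0 and 44.1 CPM with IgG, 40.5, 51.3 and 67 CPM with anti-B7-H3 and 55.2, 86.2 and 57.6 CPM with anti-PD1, the anti-B7-H3 libraries overlapping both groups. Of 24 cell cycle brakes 22 were tested, with medians of 0.06, 0.12 and 0.04 for the same comparisons in the same order and 0 called. The difference between these lists was not tested.

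**Figure D5:**
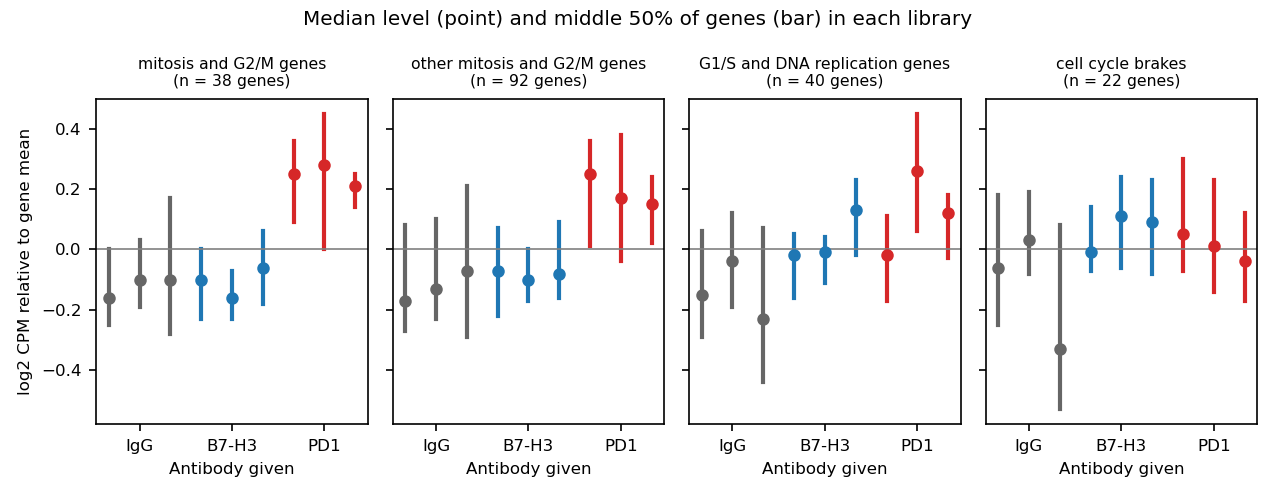
Median level (point) and middle 50% of genes (bar) in each library for the mitosis and G2/M genes and 3 related lists, as log2 CPM relative to each gene's mean over the 9 libraries. For the 38 genes the anti-PD1 medians (0.21 to 0.28) lie apart from the 6 others (-0.16 to -0.06).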

How the data were processed

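The 9 deposited tables, 1 per library, hold estimated counts per transcript, per the file headers: unnormalized, with deposited TPM values and the effective length in columns beside them. The labels' protocols give total RNA depleted of ribosomal RNA, with an RNA Integrity Number of at least 7.0. The submitters' processing notes name FastQC 0.11.8 and GRCm38; which quantifier was run is not stated there. GENCODE M21 supplied gene names for 57473 of 58083 transcripts by identifier; 0.054 to 0.344% of reads lay on the remaining 610. For 99.7% of 57362 coding transcripts the listed length equals the coding sequence within 3 bases, so UTRs are left out. Sums of estimated counts per gene were rounded. TPM was not used for any test.

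Tests used edgeR 4.0.16 under R 4.3.3: TMM, filterByExpr by group, and 1 robust quasi-likelihood fit to all 9 libraries with group as the term. Each pair of groups was compared, and 1 F test covered all 3. Benjamini-Hochberg adjustment ran over 12980 genes with a threshold of 0.05 and no minimum fold; 8661 genes with reads were not tested. The biological coefficient of variation was 28.5%. Levels are TMM-scaled CPM, and per-kilobase levels use effective coding length. Of the 38 genes, 34 have 1 transcript with at least 80% of their reads, and 28 share no 31-base word of their full transcripts with another gene (at most 3.15% of words). Satellite genes are 12 genes with more than 30% of their 15-base words in common with Gm10718, a gene made of the repeat (itself included); no 95% Wilson interval of a library's satellite share was wider than 0.0649 percentage points, which covers counting error only. The code was tested on simulated data. DESeq2 1.42.0, limma 3.58.1 (voom, with and without quality weights), other scales, filters and sample sets were alternatives.

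The members, gene lists and tests were chosen with earlier results of these data known. Library values are given for the 4 members with the smallest p in each comparison and over the 3 groups, the 3 highest and 3 lowest levels per kilobase, and up to 3 members per role; other lists name the 2 genes with the smallest p, and 1 gene picked by this rule is not reported here. Replicate numbers are not stated to mark a shared batch or animal.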

Additional observations from a re-analysis of the deposited data

How the results depend on the processing

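Between anti-PD1 and IgG, 33 to 37 of the 38 genes were above 0 under the 18 alternatives other than library totals, and between anti-B7-H3 and anti-PD1 34 to 37 were below 0. Counts of all genes called moved far more. In the order anti-B7-H3 against IgG, anti-PD1 against IgG, anti-B7-H3 against anti-PD1 and the 3 groups, edgeR called 79, 53, 0 and 158 genes and DESeq2 502, 822, 24 and 778. DESeq2 called 2 members for anti-PD1 against IgG and 2 over the 3 groups. Limma-voom called 82 genes for anti-PD1 against IgG and 76 over the 3 groups. With quality weights it called 366, 433 and, over the 3 groups, 317 genes, and 2 members for anti-PD1 against IgG, and the members' median for anti-B7-H3 against anti-PD1 was -0.37. With library totals the counts were 12536 (12462 higher, 74 lower), 12341 (12293 higher, 48 lower), 23 and 12406 genes, all 38 members were called against IgG in both comparisons and over the 3 groups, the medians were 3.36, 3.5 and -0.12, and Birc5 turned from -0.44 to 2.97 for anti-B7-H3 against IgG; the median of all tested genes moved to 3.37, 3.15 and 0.20. Without satellite genes 479, 303 and, over the 3 groups, 543 genes were called, and the median for anti-PD1 against IgG was 0.39. With no low-count filter the counts were 1040, 714, 4 and 1652, with 3 members (Ccna2, Cdk1 and Bub1) for anti-PD1 against IgG and 1 (Ccna2) over the 3 groups, and medians of 0.23 and 0.55 against IgG. With at least 10 reads in every library they were 3, 23 and, over the 3 groups, 82, with a median of 0.29 for anti-PD1 against IgG. With only the libraries compared, 20 and 89 genes were called against IgG. The cause of these shifts was not tested.

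The replicate block gave 134 genes for anti-PD1 against IgG, 0 members in each comparison and medians of 0.00, 0.33 and -0.30. Correlations of the 9 same-numbered pairs, on deviations from the group mean, ran from -0.32 to 0.18. Pairs with different numbers ran from -0.43 to 0.52. Such deviations cancel within each group by construction, so these values cannot show whether the numbers pair the libraries. Leaving out 1 library at a time gave 8 to 454, 9 to 438, 0 to 0 and 11 to 433 genes called, 0 members in every case, and medians of -0.02 to 0.06, 0.34 to 0.37 and -0.36 to -0.30. For the counts of genes called, though not for the medians, the low ends came without IgG 1 and the high ends without IgG 2. Within 1.5 times of the count from all 9 libraries were the first count without anti-PD1 1 (58) and the second without anti-B7-H3 3 (46). So was the last without anti-PD1 1 (121). In the IgG libraries as few as 15 reads stand behind a member's value, which limits the precision of each value against IgG.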

Other observations

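Mybl2, which encodes B-Myb, a factor that acts with the MuvB complex at G2/M promoters, passed the threshold over the 3 groups (edgeR's quasi-likelihood test, Benjamini-Hochberg adjusted p = 0.0411), as the one gene of the 92 other mitosis and G2/M genes tested to do so. Its summed level was 1620, 824 and 3710 CPM with IgG, 394, 214 and 135 CPM with anti-B7-H3 and 364, 120 and 225 CPM with anti-PD1, so that every IgG library was above the 6 others, opposite in order to most mitotic genes. The log2 fold changes against IgG were -3.05 ± 0.64 for anti-B7-H3 and -3.12 ± 0.64 for anti-PD1 (edgeR adjusted p = 0.0694 and 0.0627). Its call depends on the processing. Over the 3 groups it was called under 10 of 18 alternatives (adjusted p from 8.08e-05 to 0.571), and leaving out IgG 1 or 3, anti-B7-H3 2 or 3, or anti-PD1 2 or 3 ended the call (edgeR adjusted p = 0.108, 0.156, 0.0819, 0.0658, 0.11 and 0.0987). Against IgG it was called under 4 of 19 alternatives for anti-B7-H3 and 7 for anti-PD1, with both called by DESeq2 (adjusted p = 0.000879 and 0.000656), by limma-voom with quality weights (0.00608 and 0.0152), without satellite genes (0.0311 and 0.0436) and without IgG 2 (0.0154 and 0.0182). Scaled by library totals, which count the satellite reads, the log2 values were 0.49 and 0.21, where the medians of all tested genes were 3.37 and 3.15. Mybl2 lay below these medians, a place that a change of scale largely keeps by construction. Under the other alternatives the values lay between -3.54 and -2.30.

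The sum rests on 1 short transcript. Mybl2-205, listed at 789 bases, held 8299, 7277 and 8061 estimated reads in IgG libraries 1 to 3, with 7475, 7381 and 4853 in the anti-B7-H3 libraries and 4884, 2531 and 5527 in the anti-PD1 libraries, among libraries with fewer reads outside satellite genes under IgG. The longer coding transcript Mybl2-201, listed at 2115 bases, was at 11.1, 12.1 and 8.73 CPM with IgG, 12.2, 9.05 and 10.4 CPM with anti-B7-H3 and 8.02, 10.4 and 8.71 CPM with anti-PD1, and its groups overlapped. What the reads assigned to Mybl2-205 are was not tested.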
